A study of Homo sapiens with 4 samples.

Results

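TGM2 (ENSG00000198959) encodes transglutaminase 2, an enzyme that ties proteins of the extracellular matrix together. The gene was chosen by its numbers of listed cytidine positions in these same tables, 1 in control and 15 after TGF-β1. Those numbers are therefore given as a description and support nothing. The members are all positions that either table assigns to TGM2, which were 15 different positions of 17862 in the whole series. The position of the control table was also 1 of the 15 of the TGF-β1 table.

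Transglutaminase 2 joins a glutamine of one protein to a lysine of another when calcium is high, and the bond resists proteolysis. When bound to GTP it does not crosslink and can act in signalling. Outside the cell it binds fibronectin and integrins, crosslinks matrix proteins, and takes part in fixing latent TGF-β to the matrix, while TGF-β in turn is a known inducer of TGM2. In the liver it is studied for its part in scar matrix, which hepatic stellate cells lay down.

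LX-2 is a human cell line of hepatic stellate origin, labelled WT, so every value is of 1 line in culture. The control group was 2 untreated libraries, and the other group was 2 libraries of cells given human recombinant TGF-β1 at 5 ng/ml for 24 h. The labels call the libraries of a group biological replicates. Polyadenylated RNA was sequenced after sodium borohydride (NaBH4), a reducing agent that turns N4-acetylcytidine (ac4C), an acetylated cytidine of RNA, into a base that reverse transcriptase can misread. All groups had NaBH4, and no library is labelled as untreated with it, so a listed position is a cytidine with a mismatch and was not shown here to be ac4C.

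Each group has 1 table with 1 value per position, called here the mismatch difference. It is a fraction in the deposited table and is printed in percent, and what the authors subtracted is not stated. Each position also has 1 p-value of the authors, always below 0.05. The tables hold 8112 control and 11735 TGF-β1 positions, none under 1.00%. They give no value per library and no reads, so no value of a position has a replicate error or an interval, and no test between the groups was run. Of 17 stellate cell and myofibroblast marker genes, 5 were listed in control and 9 with TGF-β1, including COL1A1, VIM and TAGLN. Over all genes, 4384 were listed in control and 4444 with TGF-β1, and 28.4% of RefSeq coding genes were listed in either table. COL1A2, DES, LRAT, PDGFRA, RGS5, LUM, DCN and HAND2 had none in either table. Of the marker genes of other liver cells, none of 9 of hepatocytes and none of 6 of endothelial cells was listed. Of 5 of cholangiocytes only SOX9 was listed, with 1 and 0 positions, and of 6 of macrophages only CD68, with 3 and 2. A gene can be expressed and have no listed position.

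The table places TGM2 on the minus strand of chromosome 20 of hg38, from 38127385 to 38166578, a span of 39194 bases. All 15 positions lay in transcript ENST00000361475, which runs from 38165270 down to 38127385, and none was annotated to a second gene. In the table's annotation 11 were coding (73.3%), 2 were in the 5'UTR and 2 in the 3'UTR (13.3% each). Of all positions after TGF-β1, 76.3% were coding, 9.96% in 5'UTRs and 12.0% in 3'UTRs. The positions fell into 5 blocks with gaps of more than 1000 bases between them, counted along the gene with introns included. The exon of a position is not given in the tables.

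**Figure D1:**
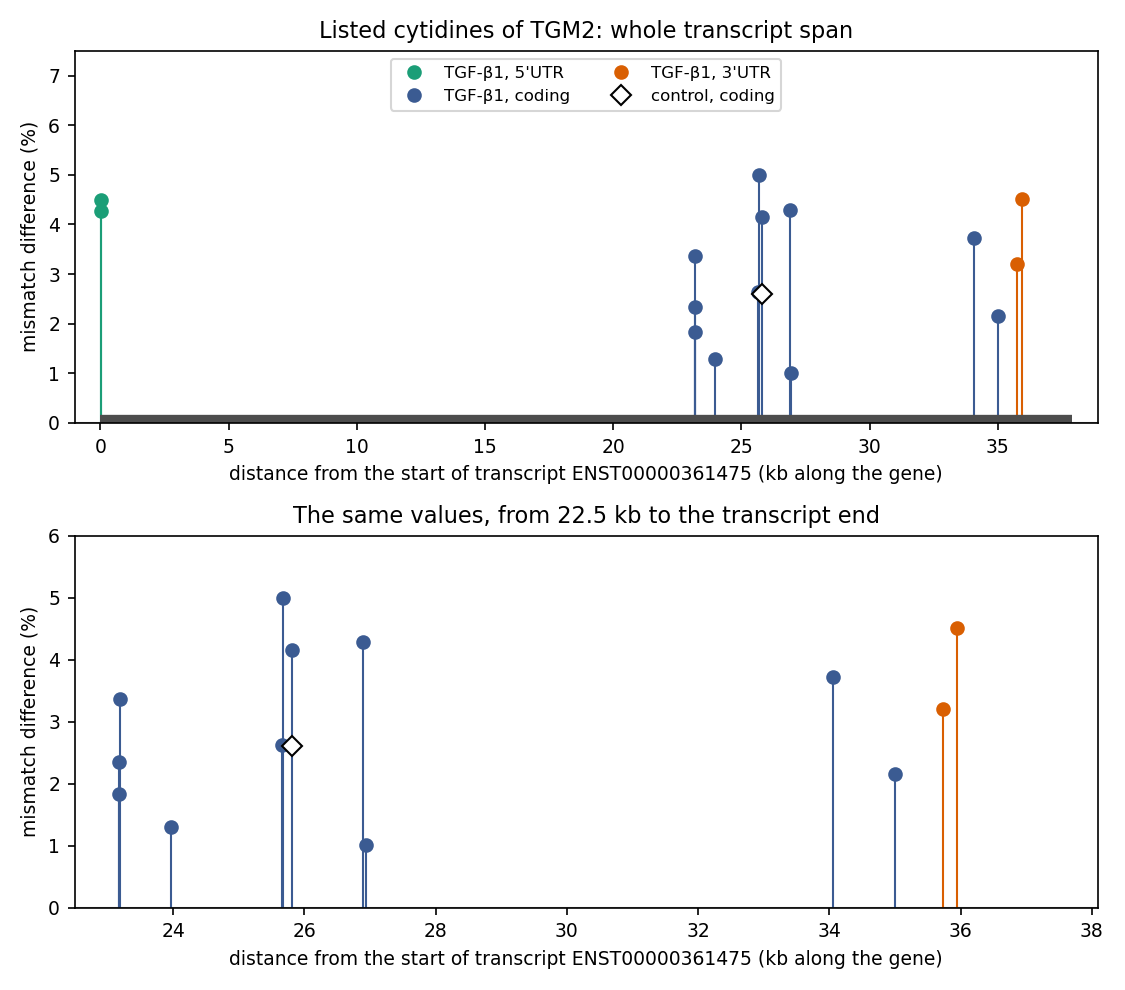
Mismatch difference (%) of each listed TGM2 cytidine against its distance from the start of transcript ENST00000361475 (kb along the gene, introns included; the dark bar is the transcript span). Filled points are the TGF-β1 group by segment and the open diamond is the single control value, with the lower panel widening the part that holds the 13 positions away from the start; the highest point is at 5.00%.

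The most 5' block was a pair of adjacent cytidines in the 5'UTR, close to the transcription start. Position 38165233 is base 38 counted from the start of ENST00000361475 along the gene, and had 4.26% after TGF-β1 (authors' p-value of 1.34e-12). Position 38165232, the next base, had 4.49% (authors' p-value of 1.02e-15). Among TGM2 positions, this pair alone was annotated to more than 1 transcript, as both also lie in the 5'UTR of ENST00000453095 and ENST00000373403, which start farther upstream. Neither was in the control table. Then came 23142 bases with no listed position.

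The next block held 4 coding positions within 789 bases, and its values were low. Position 38142090 had 2.34% after TGF-β1 (authors' p-value of 4.67e-08). Its neighbour 38142089 had 1.84% (authors' p-value of 1.12e-17), so the lower value of this adjacent pair had the smaller p. Position 38142075 had 3.36%, which was also the median of the 15 TGM2 values (authors' p-value of 1.95e-31). Position 38141302 had 1.30% (authors' p-value of 9.31e-07). All 4 were listed after TGF-β1 only.

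The third block, 3 coding positions within 161 bases, held the highest TGM2 value and the only position of both tables. Position 38139617 had 2.63% after TGF-β1 (authors' p-value of 1.15e-11). Position 38139599 had 5.00%, the highest of the gene (authors' p-value of 2.70e-39). Neither of these was listed in control. Position 38139457 had 2.61% in control (authors' p-value of 8.02e-14) and 4.15% after TGF-β1 (authors' p-value of 3.71e-37). The value after TGF-β1 was 1.54 percentage points higher, a ratio of 1.59 and a log2 ratio of 0.67, with no replicate value in either group. Over the 1985 positions that both tables share, the median difference was 1.73 points and the median log2 ratio 0.58, and 78.4% were higher after TGF-β1. The difference at the TGM2 position was larger than at 47.3% of them.

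The fourth block was a pair of coding positions 49 bases apart with unlike values. Position 38138379 had 4.29% after TGF-β1 (authors' p-value of 6.52e-37). Position 38138330 had 1.01% (authors' p-value of 0.0119), the lowest value of the gene and close to the lowest that the table lists. Then 7114 bases followed with no listed position.

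The last block held the 3' end of the coding sequence and the 3'UTR, 4 positions over 1896 bases. The coding positions were 38131216 with 3.72% (authors' p-value of 0.000174) and 38130266 with 2.16% (authors' p-value of 0.0354). The 3'UTR positions were 38129532 with 3.20% (authors' p-value of 2.19e-07) and 38129321 with 4.51% (authors' p-value of 0.0167). The latter lay 1936 bases before the annotated transcript end. Every position of this block was listed after TGF-β1 only.

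Over the gene, the values after TGF-β1 ran from 1.01% to 5.00% with a median of 3.36%. The 11 coding positions had a median of 2.63%, the pair in the 5'UTR 4.38% and the pair in the 3'UTR 3.86%. With 2 positions in each UTR no order of the segments was read from these medians. Over all positions after TGF-β1 the medians were 4.53% in coding sequence, 4.66% in 5'UTRs and 5.71% in 3'UTRs. Every TGM2 value but that of 38139599 was under the median of its segment over all genes.

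The highest TGM2 value had the lowest authors' p-value, but positions of like size could differ widely in it. At 4.26 to 4.51% there were 4 positions, 2 in the 5'UTR, 1 coding and 1 in the 3'UTR, and their p ran from 6.52e-37 to 0.0167. The 4 lowest p-values of the gene were all those of coding positions in the middle blocks, from 38142075 to 38138379. The last 4 positions toward the 3' end had none below 2.19e-07. Over the 15 positions, 12 had p under 0.001 (80.0%, against 68.9% of all positions after TGF-β1) and 3 had 0.0119 or more. Whether reads differed along the transcript was not tested, since the tables give none.

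**Figure D2:**
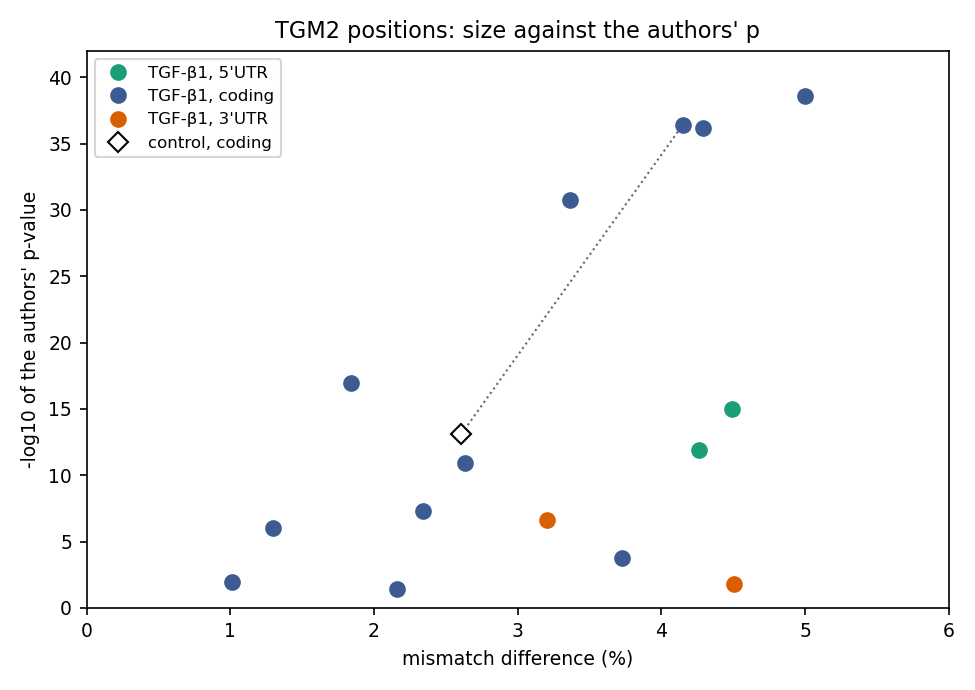
Mismatch difference (%) of each TGM2 position against -log10 of the authors' p-value, by segment after TGF-β1 (filled points) and in control (open diamond), with a dotted line joining both values of position 38139457. Near 4.3 to 4.5% the points spread over most of the vertical axis, from an authors' p-value of 6.52e-37 to one of 0.0167.

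Several TGM2 positions were next to each other. In 2 pairs, 4 of the 15 positions, the cytidines were adjacent bases, and 7 of 15 lay within 20 bases of another listed position. Of all positions after TGF-β1, 4.79% had an adjacent listed cytidine and 17.0% had another within 20 bases. These shares are over all genes, most of which hold far fewer positions than TGM2. A gene chosen for many positions has more chances of close neighbours, so nothing about TGM2 was read from this contrast. Spacing in other genes with many positions was not compared. The values of the adjacent TGM2 pairs were 0.225 and 0.506 points apart, and over all 283 adjacent pairs after TGF-β1 the median was 1.60 points. These gaps are in points and were not set against the size of the values. The first pair had 4.26% and 4.49% and the second 2.34% and 1.84%, all below the 4.68% median of all positions after TGF-β1. Adjacent cytidines can be read by the same molecules, so the members of a pair are not independent, and with pairs counted once TGM2 had 13 places.

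Among all genes, TGM2 stood near the top by number of positions after TGF-β1, which is how it was chosen. It was 25th by this number among the 4444 genes listed after TGF-β1. Of 6112 genes in either table, 15 (0.245%) had at least 14 more positions after TGF-β1 than in control, the number that TGM2 had. Of the 2471 genes with 1 position in control, the median number after TGF-β1 was 1, and the highest after TGM2 was 13. TGM2 held 15 of the 477 positions of chromosome 20 after TGF-β1 and 1 of 314 in control. The tables hold no transcript levels, and how far the number of listed positions goes with the amount of TGM2 RNA was not tested.

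**Figure D3:**
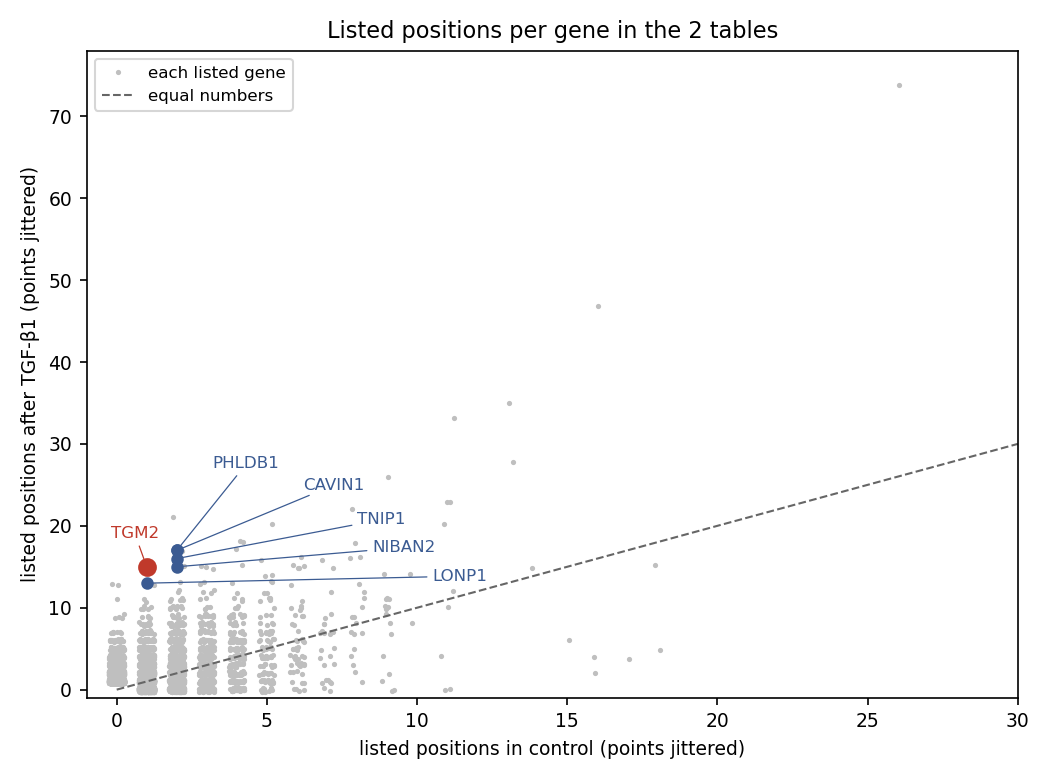
Number of listed positions of each of 6112 genes in control (horizontal) and after TGF-β1 (vertical), with small random offsets on the grey points only; the dashed line marks equal numbers. TGM2 (red, 1 and 15) and the 5 genes closest to it (blue) lie at the left edge, above nearly all other genes with 1 or 2 control positions.

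All listed positions had at least 1.00% and an authors' p-value under 0.05, so size entered the numbers that chose the gene through these limits. Apart from them, the sizes of the TGM2 values did not enter the choice of the gene. Of its 15 positions after TGF-β1, 1 (6.67%) reached 5% and none reached 10%. Over all positions listed after TGF-β1, 46.8% reached 5% and 18.5% reached 10%. Genes with many positions had lower values than the table as a whole: in the 116 other genes with at least 10 positions after TGF-β1, the 1636 positions had a median of 3.74%, 35.5% reached 5% and 12.0% reached 10%. The median of TGM2 lay inside the middle range of such genes, whose gene medians had quartiles of 3.14% and 4.57%. Its highest value was the fourth lowest of the 117 such genes, against a median of 13.4%. Positions of 1 gene share their transcripts, and no test of this difference was run.

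**Figure D4:**
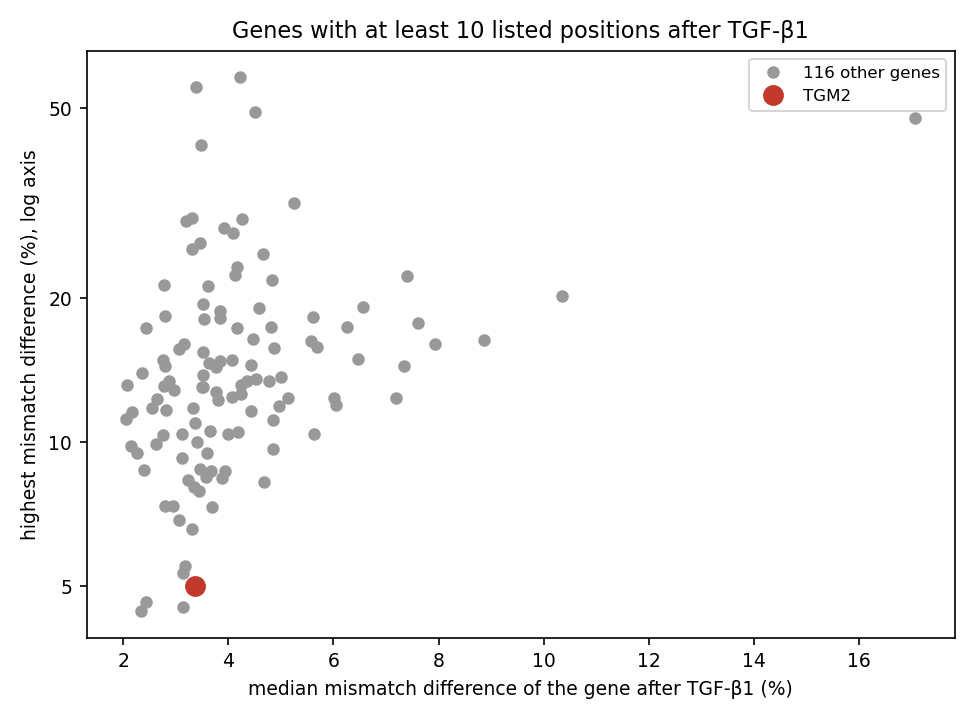
Median (horizontal, %) against highest mismatch difference (vertical, %, log axis) after TGF-β1 for the 117 genes with at least 10 listed positions there. TGM2 (red) has a middling median of 3.36% and, at 5.00%, the fourth lowest highest value.

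Few genes combined many positions after TGF-β1 with almost none in control. Of all 6112 genes, 12 (0.196%), TGM2 included, had at least 10 after TGF-β1 and 0 or 1 in control. Of these, 9 had 1 position in control. That position recurred after TGF-β1 in TGM2, EHD2, MYL9 and REXO4, and did not in DCTN1, LONP1, SDHA, SLC4A2 and SUPT5H.

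The 5 genes closest to TGM2 in their 2 position numbers were found by the distance between square roots of those numbers, over only 2 groups. LONP1, a protease of the mitochondrial matrix, was the closest with 1 and 13 positions (distance 0.27). NIBAN2, a member of the niban family, followed with 2 and 15 (0.41), and TNIP1, a binding partner of the NF-κB regulator A20, had 2 and 16 (0.43). CAVIN1, a coat protein of caveolae, and PHLDB1, a pleckstrin homology domain protein, each had 2 and 17 (0.48). Their medians after TGF-β1 ran from 2.36% in PHLDB1 to 3.33% in NIBAN2, and their highest values from 8.77% in LONP1 to 13.99% in PHLDB1, all above the 5.00% of TGM2. The choice of scale decided the names: with log2 of the number plus 1, LONP1 was again the closest, and the other names were SLC4A2, MYL9, DCTN1 and EHD2.

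TGM2 was the only transglutaminase in the tables. Of the 9 genes of that family, TGM1, TGM3, TGM4, TGM5, TGM6, TGM7, F13A1, which encodes a subunit of coagulation factor XIII, and EPB42, an erythrocyte protein without the enzyme activity, had no position in either table. Within 500000 bases of TGM2 lie 11 other coding genes, of which 2 were listed, CTNNBL1 and RALGAPB, and 28.4% of all RefSeq coding genes were. The nearest listed coding genes on each side, of which BLCAP and FAM83D lie beyond that window, were CTNNBL1 with 1 and 1 positions and BLCAP with 0 and 2 on the side of lower coordinates, and RALGAPB with 0 and 1 and FAM83D with 1 and 1 on the other.

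Groups of genes around TGM2, 4 in all, were set beside all genes by how many members had more or fewer positions after TGF-β1. Over all 6112 genes 51.2% had more and 35.3% had fewer, and the median change was 1 position. With the longer table cut to the length of the shorter by lowest p-value, the same shares over the 5642 genes left were 39.0% and 47.3%, so that cut turns the balance over all genes. The lists were made with earlier results of these data known, TGM2 is left out of them, and none was tested.

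Other enzymes that modify or crosslink collagen also had more listed positions. All 7 listed members of 13 had more positions after TGF-β1, with 17 in control and 35 after it and a median change of 2. At equal table lengths 6 had more and 0 fewer. LOXL2, a lysyl oxidase that crosslinks collagen, had 4 and 9 positions, 2 of them shared, with medians of 2.33% and 3.97%. P4HB, a subunit of collagen prolyl hydroxylase, had 5 and 7 with medians of 3.09% and 4.10% and highest values of 18.3% and 9.63%. PLOD1, a collagen lysyl hydroxylase, had 3 and 6 with medians of 2.71% and 3.49%, and P4HA2, a catalytic prolyl hydroxylase subunit, had 2 and 4 with 2.59% and 3.51%. The other members were LOX with 0 and 2 positions and PXDN, a peroxidase that crosslinks collagen IV, with 1 and 4, at 10.2% in control and a median of 17.4% after TGF-β1. PLOD3, a further lysyl hydroxylase, had 2 and 3 with a lower median after TGF-β1, 3.70% and 3.22%. TGM2 had more positions after TGF-β1 than any of them, but it was chosen by that number. The highest value of each was above that of TGM2, from 6.30% in PLOD1 to 29.1% in PXDN.

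The extracellular proteins that transglutaminase 2 crosslinks or binds were divided. Of 25 genes 16 were listed, and 10 had more positions, 4 fewer and 2 equal numbers, with 51 in control and 71 after TGF-β1. At equal table lengths 5 had more and 7 fewer, the same turn as over all genes. FN1, fibronectin, the main matrix partner of the enzyme, had 8 and 16 positions, with medians of 4.15% and 3.57% in that order. COL5A1 also had 8 and 16, with medians of 2.79% and 4.77%. COL1A1 had 4 and 10, with 2.84% and 4.85%. COL5A2 had 9 and 11, with 6.53% and 7.34%, and 8 of its positions were in both tables. The members with fewer, named after their values were seen, were FBN2 with 5 and 0, LRP1, an endocytic receptor of transglutaminase 2, with 7 and 1, IGFBP5 with 2 and 1, and ADGRG1, an adhesion receptor that binds the enzyme, with 1 and 0. Of the integrin chains, also named after their values were seen, ITGB1 had 1 and 2 positions and ITGB5 1 and 1, and ITGB3 had none.

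**Figure D5:**
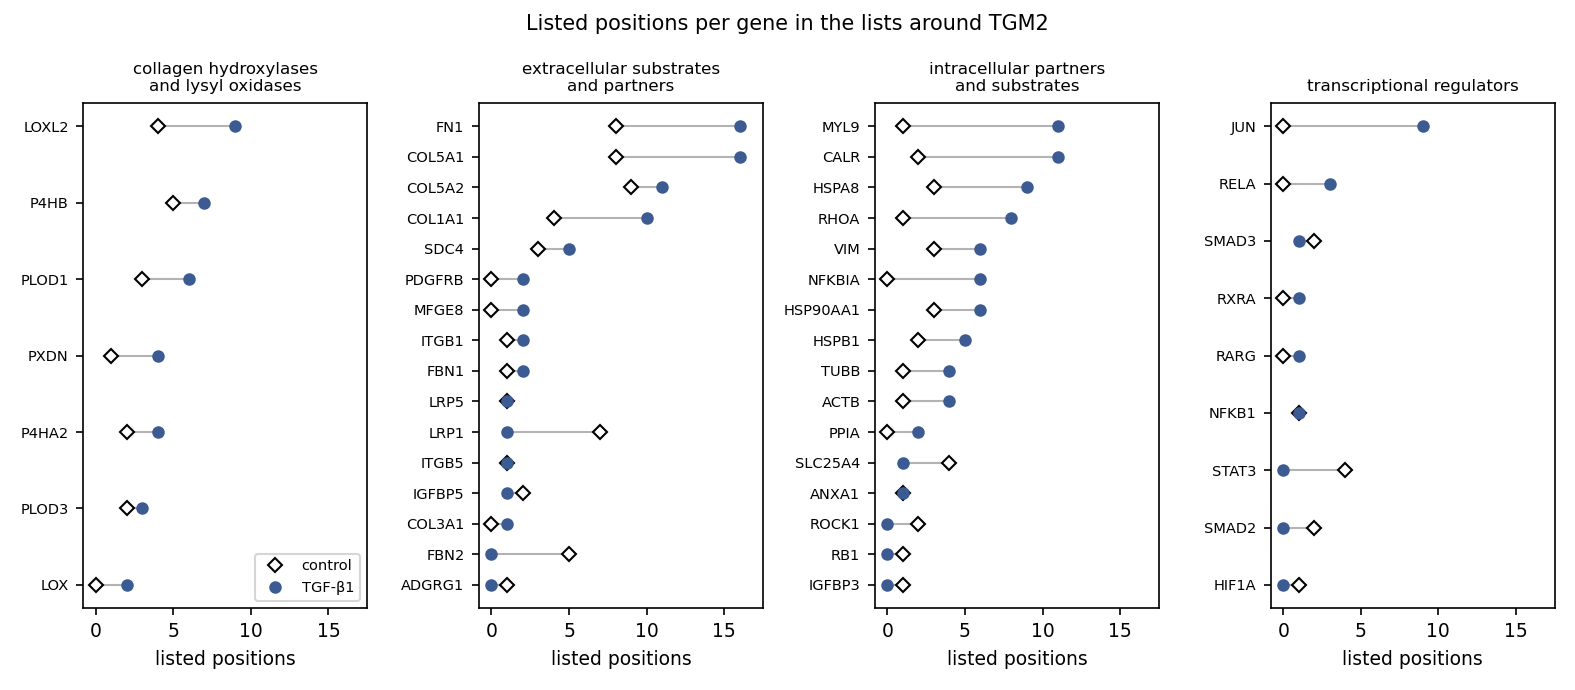
Number of listed positions in control (open diamonds) and after TGF-β1 (filled points) for the reported members of 4 gene lists around TGM2; TGM2 itself, with 1 and 15, is not drawn. In the first list every member has more after TGF-β1, and in the other lists members lie on both sides.

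Intracellular partners and substrates mostly had more positions. Of 20 genes 16 were listed, 11 with more, 4 with fewer and 1 with equal numbers, 26 positions in control and 74 after TGF-β1. CALR, the calcium-binding chaperone calreticulin, had 2 and 11 positions with medians of 6.44% and 3.51%. MYL9, a myosin light chain, had 1 and 11, close to the pattern of TGM2, with 3.16% and 3.14% and a highest value of 5.34%. HSPA8, a chaperone, had 3 and 9, and RHOA, a small GTPase and substrate of the enzyme, had 1 and 8. Those with fewer, named after their values were seen, were ROCK1, a kinase that RHOA activates, with 2 and 0, SLC25A4 with 4 and 1, RB1 with 1 and 0 and IGFBP3 with 1 and 0.

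Transcription factors known to act on TGM2 were divided. Of 16, 10 were listed, 5 with more positions, 4 with fewer and 1 with equal numbers, and the totals were 12 and 20. At equal table lengths 3 had more and 5 fewer, at an authors' p-value under 0.001 it was 3 and 2, and at mismatch differences of at least 5% it was 4 and 1. JUN, a subunit of AP-1, had 0 and 9 positions at full length, which is more than the difference between the totals. RELA, an NF-κB subunit, had 0 and 3. STAT3 went the other way with 4 and 0. The remaining members with fewer, named after their values were seen, were SMAD2 with 2 and 0, SMAD3 with 2 and 1 and HIF1A with 1 and 0. SMAD4, which pairs with the receptor-activated SMADs and was also named afterwards, had no position in either table.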

How the data were processed

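LX-2 cells were analysed in 4 NaBH4-sequencing libraries, 2 untreated and 2 given TGF-β1, grouped by their titles. The submitters' processing notes name build hg38, featureCounts, STAR 2.7.6a and fastp 0.23.1 without their roles. The sources used here do not give the caller, its filters or how replicates were combined. Each group has 1 deposited table, with the mismatch difference as a fraction (column diff) and 1 p-value per position, each under 0.05. Adjustment of these p-values is not stated, and depth is unknown.

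Lines of 1 position were merged (Python 3.11.15, pandas 2.3.3), and positions counted for each gene name. A position was shared when its coordinate and strand stood in both tables. The end column was read as the 1-based position. Of 332 listed positions inside RefSeq promoter windows (GRCh38.p14), the strand's base was C at 332 when read so and at 59 when the start column was read so. TGM2 has no entry in the promoter table. Gene names are those of the tables, and RefSeq gave the neighbouring genes.

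The gene and the lists were chosen with earlier results of these data known. Named were TGM2, the 5 genes nearest to it in position numbers, up to 4 members of each list with most positions (ties in the order of the list), and the 2 nearest listed coding genes on each side. One gene of a list is counted but not reported here by name. Other names are said to be chosen after their values were seen, or complete a list. With 1 value per group, the planned model over replicates was not run. Alternatives were a p under 0.001, a mismatch difference of at least 5%, equal list lengths, counting positions within 10 bases once, coding positions only, and another distance. Counting, merging and distances were tested on simulated data.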

Additional observations from a re-analysis of the deposited data

How the results depend on the processing

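With the authors' p under 0.001, and also when the longer table kept only its lowest p-values up to the length of the shorter, TGM2 had 1 position in control and 12 after TGF-β1, with a median of 3.54%. With positions within 10 bases counted once it had 1 and 13, and with coding positions only 1 and 11. At a mismatch difference of at least 5%, it had 0 in control and 1 after TGF-β1, with a value of 5.00%, since the filter removes all its other positions. Of the 5 genes closest to TGM2, 1 was the same when the distance used log2 numbers. Of 24 recomputed counts of list members, 18 stayed within 1.5 times. At equal table lengths the share of all genes with more positions was 39.0% and with fewer 47.3%, against 51.2% and 35.3%. There extracellular partners had 5 members with more and 7 with fewer, against 10 and 4, and transcription factors 3 and 5, against 5 and 4. The latter had 3 and 2 at p under 0.001 and 4 and 1 at mismatch differences of at least 5%. No paired analysis was possible because the tables hold 1 value per group, and for the same reason no library could be left out.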
